A study of Danio rerio with 9 samples.

Results

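The lipid metabolism genes described here are 82 of the 1154 distinct genes listed in 8 tables, each of which compared the larval zebrafish liver after exposure to one compound with the liver of DMSO-treated larvae. They were chosen by their listing, that is, by having passed the authors' threshold for a differentially expressed gene in at least 1 table. A gene was taken when it stood under the Reactome pathway of lipid and lipoprotein metabolism (55 genes) or under the KEGG pathways PPAR signaling, steroid biosynthesis, fatty acid metabolism or glycerophospholipid metabolism (37 genes, 10 of them in both databases). Another 6 genes under these pathways (*ap2m1a*, *cd36*, *clta*, *cltcb*, *pld1b* and *ppt2*) were left out because they also stood under lysosome, phagosome or endocytosis. Since the listings chose the members, their counts below are descriptions, and no test was run on them.

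Wild-type AB larvae were exposed from 3 dpf (days post-fertilization) for 72 h, to 6 dpf, to azithromycin, a macrolide antibiotic, to one of its structurally related impurities (F, I, J, L, Q, R and S), each at 2 mmol/L, or to DMSO. RNA of the dissected liver was sequenced as 1 library per condition, 9 in all, and how many larvae were pooled for a library was not given in the sources used here. All 8 comparisons used the same DMSO library, so a peculiarity of that library would enter every table, and what the tables share cannot be told apart from it. Each table gives a gene as upregulated, downregulated or not at all, with no fold change, read count or replicate error.

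The threshold named in the study's methods is a fold change of at least 2 for upregulated genes, and none is given there for downregulated genes. The size of a change, the members just inside or outside the threshold, and the depth of the libraries are therefore unknown. A listed gene appeared under all of its pathways in every table that listed it. A lipid gene missing from a table was therefore taken as one that did not pass in that comparison. This could not be checked, because the authors' full gene lists were not among the data used here. The tissue label could not be checked by expression levels. Of 26 hepatocyte markers, 4 were listed in any table (*tfa*, *serpina1*, *fga* and *fgb*), and *fabp10a* was in none. For other cell types, 6 of 18 skeletal muscle, 2 of 21 exocrine pancreas, 3 of 14 intestinal, 1 of 9 leukocyte and 0 of 9 erythroid markers were listed. Skeletal muscle markers had 0 upregulated and 4 downregulated for impurities Q and R. The same counts were 3 and 1 for impurity J, 3 and 2 for azithromycin, and 2 and 1 for impurity I. For impurities S, L and F they were 2 and 2, 1 and 2, and 2 and 0. Whether the share of muscle in the dissected liver differed between libraries was not tested. In bulk liver, fewer cells of a type and less RNA per cell cannot be told apart.

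The liver takes up, makes, stores, burns and exports lipid. Sterol regulatory element-binding proteins (SREBPs) turn on the genes of cholesterol and fatty acid synthesis, and peroxisome proliferator-activated receptors (PPARs), which bind DNA as dimers with retinoid X receptors, turn on fatty acid transport and oxidation. Phospholipids and triglycerides share the intermediates phosphatidic acid and diacylglycerol, sphingolipids branch from serine and fatty acyl-CoA, and cholesterol leaves the liver as bile acids or in lipoproteins. Azithromycin belongs to the cationic amphiphilic drugs, a class known for phospholipid build-up in lysosomes.

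Upregulated lipid genes outnumbered downregulated ones for impurities I, Q, R and L, and the reverse held for azithromycin and impurities J, S and F. For azithromycin, 12 of the 82 genes were upregulated and 14 downregulated, against a background of 18.9% and 17.2% of all 1154 genes. Impurity J had 9 upregulated and 16 downregulated (background 16.3% and 16.5%), and impurity I had 20 and 15 (background 18.6% and 17.1%). Impurity I was thus the compound with the most lipid genes listed, 35 (42.7%, against 35.7% of all genes). Impurity J had the fewest, 25 (30.5%, against 32.8% of all genes), and it also had the fewest genes listed over all 1154.

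The upward lean was largest for impurity Q, with 22 upregulated and 10 downregulated lipid genes (background 18.4% and 18.0%). Impurity R had 17 and 9 (background 18.4% and 16.7%), and impurity L had 18 and 11 (background 17.7% and 16.8%). Impurity S leaned the other way, with 11 upregulated and 19 downregulated (background 18.0% and 19.0%), and impurity F was nearly even, with 14 and 15 (background 17.5% and 17.9%).

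As a share of the lipid genes listed, upregulated genes made up 68.8%, 65.4%, 62.1% and 57.1% for impurities Q, R, L and I, in that order. They made up 48.3% for impurity F, 46.2% for azithromycin, and 36.7% and 36.0% for impurities S and J. Over all genes listed, the same share lay between 48.7% (impurity S) and 52.3% (impurity R). Among the 161 other genes under the KEGG metabolic pathways it lay between 42.9% (impurity J) and 50% (azithromycin). Impurities Q and R stood highest and impurities J and S lowest among the lipid genes. With 1 library per compound, whether these shares differ between compounds could not be tested.

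**Figure D1:**
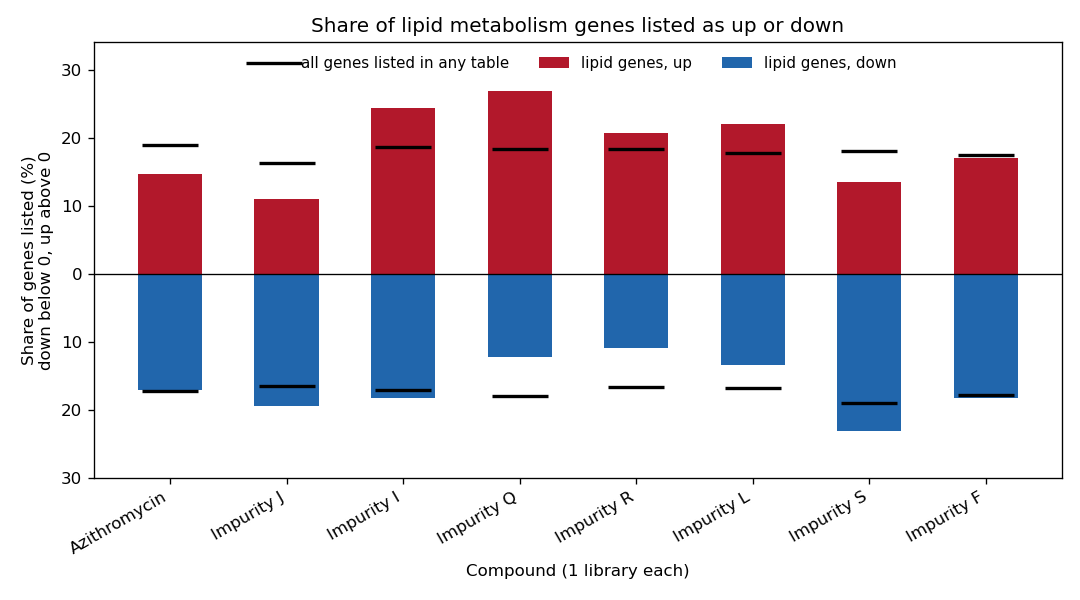
Share of the 82 lipid metabolism genes listed as upregulated (red, above 0) or downregulated (blue, below 0) for each compound, in percent, with the share over all 1154 listed genes as black lines. The red bars of impurities I, Q, R and L lie above the line and those of azithromycin and impurities J, S and F below it (F at 17.1%, with its line at 17.5%), and there is 1 library per compound and no error bar.

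The lipid genes were listed about as often as genes in general. A lipid gene was listed in a median of 2 tables, as were all 1154 genes and the 161 other metabolic genes. Of the 82, 28 (34.1%) were listed in 1 table only, against 38.3% of all genes, and 4 (4.88%) were listed in all 8, against 3.99% of all genes. The pathways as a whole give the same picture. Of 289 background genes of lipid and lipoprotein metabolism in Reactome, 60 (20.8%) were listed in any table and 229 in none, where the median over 680 Reactome pathways of at least 10 genes was 20.0%. By compound the share ran from 6.57% (impurity J) to 8.65% (impurity F), beside medians of 6.67% to 8.0% over the same pathways.

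**Figure D2:**
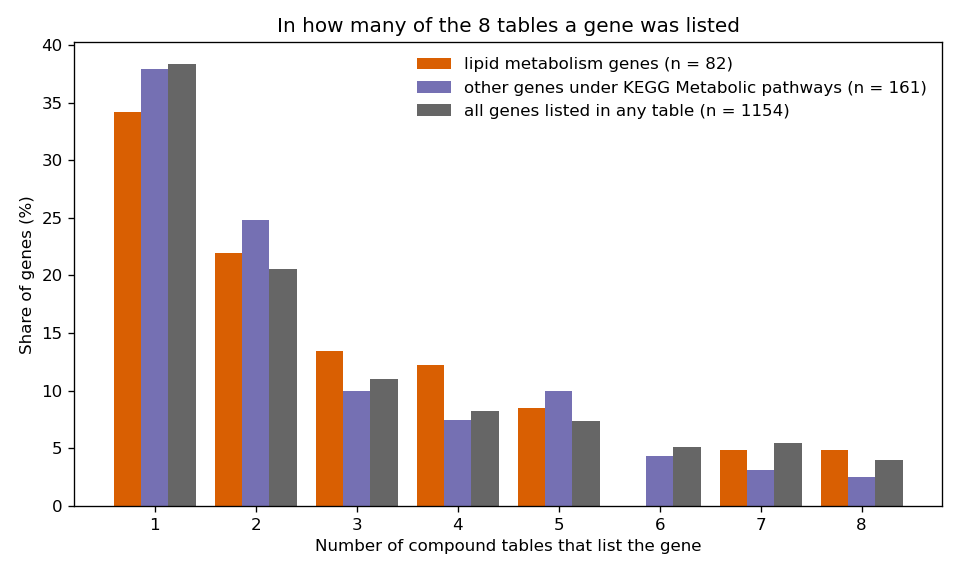
Share of genes, in percent, by the number of the 8 compound tables that list them, for the 82 lipid metabolism genes, 161 other genes under the KEGG metabolic pathways and all 1154 genes. The shares for 1 table are 34.1%, 37.9% and 38.3% and those for listing throughout 4.88%, 2.48% and 3.99%, in that order of the groups.

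The members listed in every table were *lpin1* and *esyt2b*, downregulated throughout, and *pisd* and *sgpl1*, upregulated throughout. One direction in all 8 tables was thus found for 4 of 82 lipid genes. The same held for 29 of all 1154 genes and 3 of the 161 other metabolic genes. Lipin, the product of *lpin1* (Entrez identifier 799099), removes phosphate from phosphatidic acid to give diacylglycerol, and *pisd* (553433) encodes the phosphatidylserine decarboxylase that makes phosphatidylethanolamine in mitochondria. The sphingosine-1-phosphate lyase *sgpl1* (100037312) ends sphingolipid breakdown, and *esyt2b* (100330508) encodes an extended synaptotagmin, a tether that moves lipids between the endoplasmic reticulum and the plasma membrane. Because the DMSO library is common to all 8 tables, these uniform directions are not 8 separate observations.

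The plot of directions by gene and compound shows 80 of the 82 members. Apart from those 4, *lypla2*, *pik3r1*, *ran* and *nfya* were listed for 7 compounds and *dgkaa*, *hsd17b12a*, *ncoa6*, *hmgcra*, *gpd2*, *abca1a* and *cpne1* for 5. None was listed in exactly 6.

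**Figure D3:**
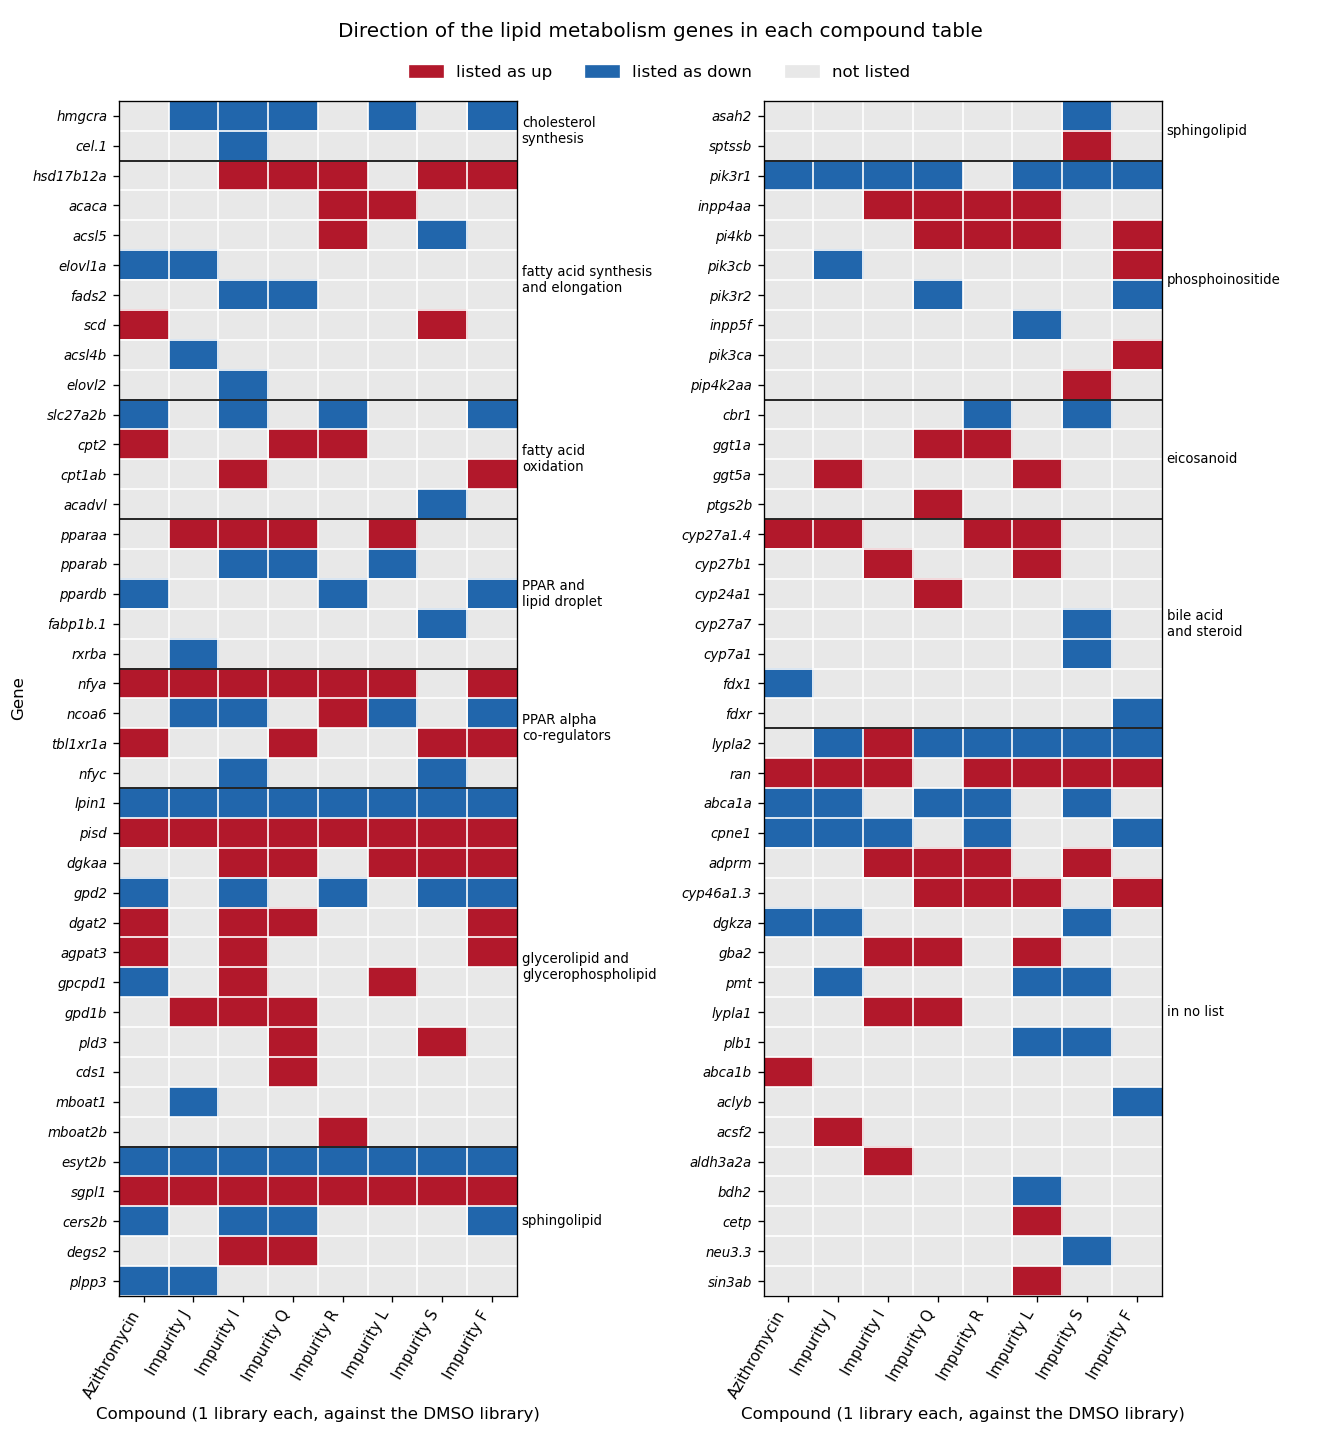
Direction of 80 of the 82 lipid metabolism genes (rows, grouped by the pathway list that holds them) in each compound table (columns), red for upregulated, blue for downregulated and grey for not listed. Rows of one colour across all 8 columns are *lpin1* and *esyt2b* (blue) and *pisd* and *sgpl1* (red), and most other rows are grey in at least 4 columns.

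The phospholipid and triglyceride genes held the largest number of members. Of 105 symbols on the glycerolipid and glycerophospholipid list, 15 were listed in any table, 12 of them lipid members. The 15 comprised 8 only upregulated, 6 only downregulated and 1 both. Their median was 3 tables, against 2 over all genes. Impurities I and Q had 6 upregulated genes of the list each, with 3 and 1 downregulated, whereas azithromycin had 3 upregulated and 4 downregulated.

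In the KEGG pathway of glycerophospholipid metabolism, 19 of 79 background genes (24.1%) were listed in any table, from 7.59% for impurity F to 13.9% for impurity I. The median over 142 KEGG pathways was 20.2% in any table, and 5.43% to 8.07% by compound.

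At the entry of glycerol into lipid, the paired enzymes of the glycerol phosphate shuttle were listed in opposite directions. The cytosolic dehydrogenase *gpd1b* was upregulated for impurities J, I and Q. Its mitochondrial partner *gpd2* was downregulated for azithromycin and impurities I, R, S and F. Impurity I was the only compound with both.

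Among the acyltransferase members on the glycerolipid and glycerophospholipid list, *dgat2*, *agpat3* and *mboat2b* were upregulated where listed and *mboat1* was downregulated. The gene of the last step of triglyceride synthesis, *dgat2*, was upregulated for azithromycin and impurities I, Q and F. Lysophosphatidic acid acyltransferase *agpat3* was upregulated for azithromycin and impurities I and F, which thus had both, while *mboat2b* was upregulated for impurity R alone and *mboat1* downregulated for impurity J alone. The lipin gene *lpin1*, whose step lies between those of *agpat3* and *dgat2*, was downregulated for all 8 compounds, whether or not either of these was listed.

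Diacylglycerol kinases return diacylglycerol to phosphatidic acid. The gene *dgkaa* was upregulated for impurities I, Q, L, S and F, and *dgkza* was downregulated for azithromycin and impurities J and S. Impurity S was the one compound with both, in opposite directions. The CDP-diacylglycerol synthase *cds1* was upregulated for impurity Q only, and phospholipase D family member *pld3* for impurities Q and S.

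Genes of lysophospholipid and head-group turnover went both ways. Lysophospholipase *lypla2* was downregulated for impurities J, Q, R, L, S and F and upregulated for impurity I, and was not listed for azithromycin. Its paralog *lypla1* was upregulated for impurities I and Q, so for impurity Q the paralogs had opposite directions. The phospholipase gene with Entrez identifier 560649, which has no symbol in the tables and is named *plb1* in RefSeq, was downregulated for impurities L and S. The glycerophosphocholine phosphodiesterase *gpcpd1* was downregulated for azithromycin and upregulated for impurities I and L. In addition, *pmt* was downregulated for impurities J, L and S, and *adprm* was upregulated for impurities I, Q, R and S. The copine gene *cpne1*, whose product binds phospholipid in the presence of calcium, was downregulated for azithromycin and impurities J, I, R and F.

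**Figure D4:**
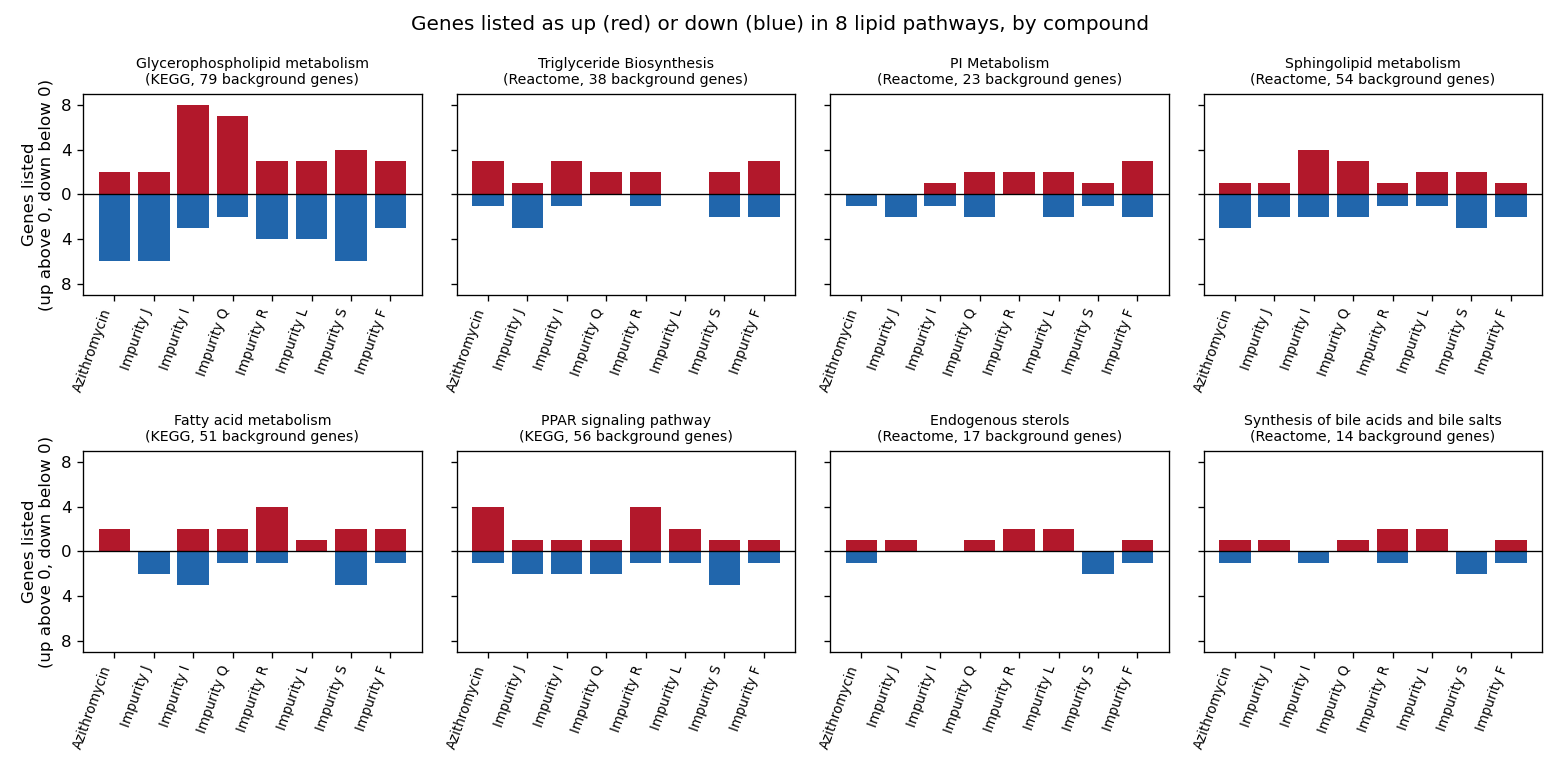
Number of genes listed as upregulated (red, above 0) or downregulated (blue, below 0) for each compound in 8 lipid pathways, with the number of background genes in each title. Glycerophospholipid metabolism has the tallest bars, 8 upregulated for impurity I and 6 downregulated for azithromycin and impurities J and S, and most other bars are 4 genes or fewer.

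Phosphoinositides are phosphorylated phosphatidylinositols that mark membranes and pass on insulin and growth factor signals. Of 83 symbols on the phosphoinositide list, 12 were listed in any table, 8 of them lipid members. The 12 comprised 7 only upregulated, 3 only downregulated and 2 both. They had 28 upward and 12 downward listings, where 50.8% of the listings over all genes were upward. This excess came from genes outside the lipid members, *rab5aa* (8 up), *pik3c3* (6 up), *ocrl* (2 up) and *pikfyve* (1 up, 1 down). Among the lipid members alone, upward listings did not outnumber downward ones. In the Reactome pathway of PI metabolism, 8 of 23 background genes (34.8%) were listed in any table, all of them members. The median over Reactome pathways was 20.0%. By compound the share ran from 4.35% (azithromycin, 1 gene) to 21.7% (impurity F, 5 genes), beside medians of 6.67% to 8.0%.

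The regulatory subunits of class I PI 3-kinase were downregulated wherever they were listed. This was the case for *pik3r1* (557176) in every table but that of impurity R, and for *pik3r2* with impurities Q and F. The catalytic subunits were listed for impurity F, where *pik3ca* and *pik3cb* were upregulated, and for impurity J, where *pik3cb* was downregulated. Impurity F therefore had both regulatory genes down and both catalytic genes up, a combination found in none of the other 7 tables.

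Other kinases and phosphatases of this pathway leaned upward. The 4-kinase *pi4kb* was upregulated for impurities Q, R, L and F, and the 4-phosphatase *inpp4aa* for impurities I, Q, R and L. The kinase *pip4k2aa* was upregulated for impurity S only, and the phosphatase *inpp5f* downregulated for impurity L only. For azithromycin, *pik3r1* was the one phosphoinositide member listed.

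Sphingolipids include ceramide, sphingomyelin and glycosphingolipids. Of 72 symbols on the sphingolipid list, 9 were listed in any table, 7 of them lipid members. The 9 comprised 5 only upregulated and 4 only downregulated, with a median of 2 tables. In the Reactome sphingolipid pathway, 10 of 54 background genes (18.5%) were listed in any table, from 3.70% for impurity R to 11.1% for impurity I. The Reactome medians were 20.0% in any table and 6.67% to 8.0% by compound.

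Beside *sgpl1* and *esyt2b*, the ceramide synthase *cers2b*, which prefers very long acyl chains in mammals, was downregulated for azithromycin and impurities I, Q and F. The desaturase-hydroxylase *degs2* was upregulated for impurities I and Q, and the non-lysosomal glucosylceramidase *gba2* for impurities I, Q and L. Impurities I and Q hence shared *cers2b* down with *degs2* and *gba2* up.

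The remaining sphingolipid members were listed in fewer tables. Lipid phosphate phosphatase *plpp3* was downregulated for azithromycin and impurity J. Impurity S alone had the small subunit of serine palmitoyltransferase, *sptssb*, upregulated and neutral ceramidase *asah2* and the ganglioside sialidase *neu3.3* downregulated. The fatty aldehyde dehydrogenase *aldh3a2a* was upregulated for impurity I alone.

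Fatty acid synthesis and elongation genes had no common direction. Of 42 symbols on that list, 10 were listed in any table, 8 of them lipid members. The 10 comprised 4 only upregulated, 5 only downregulated and 1 both. Under KEGG fatty acid metabolism, 11 of 51 background genes (21.6%) were listed in any table, beside the KEGG median of 20.2%. There were 5 genes each (9.80%) for impurities I, R and S and 1 (1.96%) for impurity L, beside medians of 5.43% to 8.07% by compound.

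Acetyl-CoA carboxylase *acaca*, the committed step of fatty acid synthesis, was upregulated for impurities R and L. The stearoyl-CoA desaturase *scd* was upregulated for azithromycin and impurity S. ATP citrate lyase *aclyb*, which supplies acetyl-CoA, was downregulated for impurity F only. No compound had more than 1 of these synthesis genes.

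Chain elongation had 1 frequently listed gene, the ketoacyl-CoA reductase *hsd17b12a* (327417), upregulated for impurities I, Q, R, S and F. The member genes of elongases and of the desaturase of polyunsaturated chains were downregulated in each table that listed them, while *elovl1b*, an elongase gene outside the chosen pathways, was upregulated for impurity I. For *elovl1a* these were azithromycin and impurity J, for *elovl2* impurity I, and for *fads2* impurities I and Q. Acyl-CoA synthetases activate fatty acids, and *acsl5* was upregulated for impurity R and downregulated for impurity S. In impurity J, *acsl4b* was downregulated and *acsf2* upregulated.

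Fatty acid oxidation genes were listed in both directions. Of 36 symbols on that list, 4 were listed in any table, 2 only upregulated and 2 only downregulated. Under KEGG fatty acid degradation, 9 of 38 background genes were listed in any table, beside the KEGG median of 20.2%. The carnitine palmitoyltransferases, which carry fatty acids into mitochondria, were upregulated, *cpt2* for azithromycin and impurities Q and R and *cpt1ab* for impurities I and F. The very-long-chain dehydrogenase *acadvl*, which opens the oxidation spiral, was downregulated for impurity S only. The very-long-chain acyl-CoA synthetase *slc27a2b* was downregulated for azithromycin and impurities I, R and F. Ketone body metabolism contributed *bdh2*, downregulated for impurity L only.

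The PPAR receptors themselves were members, and the paralogs of PPAR alpha had opposite directions. Expression of *pparaa* (563298) was listed as upregulated for impurities J, I, Q and L, and that of *pparab* (557714) as downregulated for impurities I, Q and L. Impurities I, Q and L therefore had both. The delta receptor *ppardb* was downregulated for azithromycin and impurities R and F, 3 compounds in which neither alpha paralog was listed. The retinoid X receptor *rxrba* was downregulated for impurity J only. Impurity S was the only table without a PPAR or retinoid X receptor gene.

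On the list of PPAR and lipid droplet genes, 8 of 52 symbols were listed in any table, 6 of them lipid members. The 8 comprised 2 only upregulated, 5 only downregulated and 1 both. Under KEGG PPAR signaling, 13 of 56 background genes (23.2%) were listed in any table, beside the median of 20.2% over KEGG pathways, from 2 for impurity F to 5 for azithromycin and impurity R. Fatty acid-binding protein *fabp1b.1*, which is abundant in zebrafish intestine, was downregulated for impurity S only. In that table the intestinal chitinase markers *chia.1* and *chia.2* were down and up and the pancreatic marker *amy2a* was down. Their part in the *fabp1b.1* result was not tested.

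Coregulators of the nuclear receptors and of SREBP were listed in both directions. Of 78 symbols on the list of PPAR alpha co-regulators and clock genes, 9 were listed in any table, 5 of them lipid members. The 9 comprised 6 only upregulated, 2 only downregulated and 1 both, with a median of 4 tables. The 9 had 28 upward and 9 downward listings, where 50.8% of the listings over all genes were upward. Of the 6, only *nfya* and *tbl1xr1a* are lipid members. The others include the clock repressor *nr1d1*, the acetyltransferase *crebbpa* and the sterol gene *hmgcs1*. Among the lipid members alone, directions went both ways. The subunit *nfya* (83915) of the CCAAT-binding factor NF-Y, a partner of SREBP, was upregulated for every compound except impurity S. The other listed NF-Y gene, *nfyc*, was downregulated for impurities I and S. The nuclear transport GTPase *ran* (30572), placed by Reactome in the SREBP pathway, was upregulated for every compound except impurity Q.

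The corepressor complex subunit *tbl1xr1a* was upregulated for azithromycin and impurities Q, S and F. A further corepressor gene, *sin3ab*, was upregulated for impurity L only. The coactivator *ncoa6* (100144559) was downregulated for impurities J, I, L and F and upregulated for impurity R.

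Of 39 symbols on the cholesterol list, 4 were listed in any table, 2 of them lipid members. In KEGG steroid biosynthesis 3 of 20 background genes (15.0%) were listed in any table, beside the KEGG median of 20.2%. HMG-CoA reductase *hmgcra* (559054), the rate-limiting enzyme and the target of statins, was downregulated for impurities J, I, Q, L and F and not listed for azithromycin and impurities R and S. The members under steroid biosynthesis were not enzymes of the cholesterol chain. These were the vitamin D hydroxylases *cyp27b1*, upregulated for impurities I and L, and *cyp24a1*, upregulated for impurity Q, and the lipase *cel.1*, downregulated for impurity I.

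The gene *cel.1* encodes a bile salt-activated lipase and was on the list of exocrine pancreas markers. In the table of impurity I, the other pancreatic marker listed, *amy2a*, was downregulated as well. The remaining 19 of the 21 pancreatic markers were in no table, which a marker placed in no pathway could never be. The part of pancreatic tissue in this result was not tested.

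Cholesterol export and transport genes were listed in differing directions. The efflux pump *abca1a* (558924) was downregulated for azithromycin and impurities J, Q, R and S, whereas its paralog *abca1b* was upregulated for azithromycin only. Cholesteryl ester transfer protein *cetp* was upregulated for impurity L only. Azithromycin was the only compound with both efflux paralogs.

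Bile acids are made from cholesterol by cytochromes P450. Of 79 symbols on the bile acid and steroid list, 11 were listed in any table, 7 of them lipid members. The 11 comprised 4 only upregulated, 5 only downregulated and 2 both. In the Reactome pathway of endogenous sterols, 6 of 17 background genes (35.3%) were listed in any table, beside the Reactome median of 20.0%. A compound had at most 2 of them (11.8%), beside medians of 6.67% to 8.0%, and impurity I had none.

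The sterol 27-hydroxylase *cyp27a1.4* was upregulated for azithromycin and impurities J, R and L, and the cholesterol 24-hydroxylase family gene *cyp46a1.3* for impurities Q, R, L and F. Cyp7a1, the rate-limiting enzyme of bile acid synthesis, was encoded by a gene listed for impurity S alone, where *cyp7a1* (394148) was downregulated together with *cyp27a7*. Impurity S was also the only compound whose endogenous sterol genes were downregulated with none upregulated. The electron carriers of mitochondrial P450s were downregulated in single tables, *fdx1* for azithromycin and *fdxr* for impurity F. In RefSeq, *cyp27a7* and *cyp27a1.4* lie on the same chromosome with 2 protein-coding genes between them. How reads were divided between such related copies was not given in the sources used here, so the directions of these genes are less certain.

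Eicosanoids, the signaling lipids made from arachidonic acid, were represented by 7 of 52 symbols on their list, 4 of them lipid members. The 7 comprised 5 only upregulated and 2 only downregulated. Their listings were even, 10 upward and 10 downward, beside 50.8% upward over all genes. Outside the lipid members, *abcc1* gave 8 of the downward listings and *cyp2p6* 4 of the upward ones. Under KEGG arachidonic acid metabolism, 10 of 42 background genes (23.8%) were listed in any table, beside the KEGG median of 20.2%. The gamma-glutamyltransferases, which convert leukotrienes, were upregulated, *ggt1a* for impurities Q and R and *ggt5a* for impurities J and L. These are next to each other in RefSeq, and the same caution about related copies holds. Cyclooxygenase *ptgs2b* was upregulated for impurity Q only, and carbonyl reductase *cbr1* was downregulated for impurities R and S.

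For 5 of the 82 lipid genes (6.10%) the direction differed between compounds, against 12% of all 1154 genes and 13% of the 161 other metabolic genes. Among genes listed in at least 2 tables these shares were 9.26% of 54, 19.5% of 712 and 21.0% of 100. The 5 genes were *lypla2* (up for impurity I), *ncoa6* (up for impurity R), *acsl5* (up for impurity R, down for impurity S), *pik3cb* (up for impurity F, down for impurity J) and *gpcpd1* (down for azithromycin, up for impurities I and L). In such a pair of compounds the libraries differ from each other whatever the level in DMSO, because one lay above and the other below it. Without the table of impurity R the number is 3, since *ncoa6* and *acsl5* change sides through that library. Of these 5 genes only *gpcpd1* was listed for azithromycin, and impurities I and L had the opposite direction from azithromycin in that gene alone. Impurities F, J, Q, R and S had the opposite direction from azithromycin in none of the members. Only 26 of the 82 members were listed for azithromycin, and the same count by compound over all 1154 genes was not made. With the DMSO library shared as well, the absence of opposite directions is no measure of likeness to azithromycin. No replicate error exists for any of these differences.

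Impurity S had the most lipid genes that were listed for one compound only. These were 8 of its 30 lipid genes (26.7%), 2 upregulated (*sptssb* and *pip4k2aa*) and 6 downregulated (*cyp7a1*, *cyp27a7*, *fabp1b.1*, *acadvl*, *asah2* and *neu3.3*). Over all genes, 17.1% of those listed for impurity S were listed for it alone, the highest share of the 8 compounds, where the others ran from 10.9% to 14.4%. For the lipid genes of the other compounds the number was 4 for impurities J and L, 3 for impurities I, Q and F, 2 for azithromycin and 1 for impurity R.

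Several members also stood under pathways that the choice did not use. The genes *pik3ca*, *pik3cb*, *pik3r1* and *pik3r2* were among 6 members under KEGG insulin signaling, *acaca* being another, where 30 of 144 background genes were listed in any table. Of 17 genes listed under the KEGG phosphatidylinositol signaling system, 9 were members. Under KEGG glycerolipid metabolism, 10 of 15 listed genes were members, and under KEGG fatty acid degradation, where 9 of 38 background genes were listed, 6 were members. The median over KEGG pathways was 20.2% of background genes listed in any table. Of the 195 genes listed under KEGG metabolic pathways, 34 were lipid members, so the other 48 of the 82 were not classed there.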

How the data were processed

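RNA-seq was carried out by a company for the authors. The submitters' processing notes name FastQC, fastp, HISAT2 and the genome build GRCz11; the counting tool, annotation and any test per gene were not given in the sources used here. The authors deposited 1 table per compound, 8 in all, with 817 to 916 pathways of KEGG, Reactome and PANTHER each. A row gives the genes listed against DMSO with symbol, Entrez identifier and direction, and the number of background genes. The tables' enrichment p-values, corrected p-values, frequencies and totals are the authors' own comparisons and were not used. No table of DMSO alone was analysed here.

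Genes were matched by Entrez identifier, and 31 of 1154 had no symbol (1 lipid gene, named from RefSeq GRCz12tu, which held all 82). Each gene and table was counted once. Members, pathway lists and marker lists were chosen with earlier results of these data known. List symbols in no table may not have passed, may be in no pathway, or may carry another symbol. Genes were named when listed in at least 5 tables, in both directions or on a list; other members were chosen for naming with their values in view, 19 of the 82 being on no list, and 2 members are counted but not reported here singly. With 1 library per condition and no expression values, no test, error or interval was computed. The member rule and the total number of upward listings were tested on simulated data, and the other counts were not. Alternatives were single databases, the left-out genes kept, 1 entry per symbol, and each table left out. Python 3.11.15, pandas 2.3.3, numpy 2.4.6 and matplotlib 3.10.9 were used.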

Additional observations from a re-analysis of the deposited data

Results flagged for a closer look

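The lipid genes whose direction differed between compounds are given here with the number of tables that listed each as upregulated. None of these differences was tested, since each compound has 1 library. The gene *lypla2* was upregulated in 1 table (impurity I) and downregulated in 6, and *ncoa6* was upregulated in 1 table (impurity R) and downregulated in 4. For *acsl5* it was 1 table up (impurity R) and 1 down (impurity S), and for *pik3cb* 1 up (impurity F) and 1 down (impurity J). The gene *gpcpd1* was upregulated in 2 tables (impurities I and L) and downregulated in 1 (azithromycin).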

How the results depend on the processing

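Keeping the 6 left-out genes, or counting by gene symbol, kept each of the 11 main counts within 1.5 times its value. With the Reactome rows alone, fewer genes are counted: 2 were listed in all 8 tables in one direction (4 in the report), 3 in both directions (5), and the numbers listed were 20, 20, 18 and 19 for impurities I, Q, L and S. With the KEGG rows alone there were 37 members, 2 in all 8 tables in one direction and 3 in both directions, and the numbers listed were 12 for azithromycin and 9, 17, 11, 12, 14, 13 and 15 for impurities F, I, J, L, Q, R and S. The number listed in both directions fell to 3 without the table of impurity R; leaving out any other table kept both counts across tables within 1.5 times. The difference between upregulated and downregulated genes, an alternative chosen after seeing the data, changed sign for impurity F, from -1 to 1 with the KEGG rows alone; the sign reversed for no other compound, and it was 0 for azithromycin with either database alone. No paired analysis was possible because each condition has 1 library and no test was run. The tables hold no reads, so what depth limits is unknown.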

Other observations

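Some genes on the lipid lists stood outside the pathways that defined the members. The bile salt export pump *abcb11a* was upregulated for azithromycin and impurities Q, S and F, downregulated for impurities J, I and R, and not listed for impurity L. The bile acid enzyme *hsd3b7* was downregulated for azithromycin and upregulated for impurity F. Conjugate and drug exporter *abcc1* was downregulated in all 8 tables, and the endosomal GTPase *rab5aa* was upregulated in all 8. The class III phosphoinositide kinase *pik3c3* was upregulated for impurities J, Q, R, L, S and F.

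Regulators and synthesis enzymes were listed as well. The clock repressor *nr1d1* was upregulated in every table except those of impurities S and F, and the acetyltransferase *crebbpa* for azithromycin and impurities J, I, Q, L and S. Acetyl-CoA synthetase *acss2* was downregulated for azithromycin and impurities J, Q, S and F. Malic enzyme *me1*, a source of NADPH, was downregulated for azithromycin and impurities R and F and upregulated for impurity I. Of the sterol genes, *hmgcs1* was upregulated for impurity S and *ggps1* for impurities I and S, tables in which *hmgcra* was not listed for impurity S and downregulated for impurity I. All of these tables share the DMSO library, and none of the values has a replicate.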
